A study of Mus musculus with 2 samples.

Results

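The Mir29 family comprises 4 microRNA genes of the mouse, Mir29a, Mir29b-1, Mir29b-2 and Mir29c, which were taken by gene name from the 2202 microRNA genes counted in the cerebral cortex. The members were taken by name and not by a cut on a measured value, but earlier results of these data were known. The libraries held small RNAs below 30 nt of the left cerebral cortex. The donors were female B6CASTF1/J mice, hybrids of a laboratory and a wild-derived strain, at 25 days of age. The labels give 1 group with 2 replicates, name no treatment and give no other age, so a change of the family with maturation was not measured. The animals are numbered separately in the labels, but both carry the same donor record, and no label says more about their separation.

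MicroRNAs are cut as short arms from hairpin RNAs, and bases 2 to 8 of an arm, the seed, choose the mRNAs that it represses. The miR-29 family is known in the mouse brain as a group that accumulates in neurons as they mature, is also found in astrocytes, and represses mRNAs of pro-apoptotic BH3-only proteins and of the DNA methyltransferase Dnmt3a. Outside the brain it is known for repressing collagen and other extracellular matrix mRNAs. Target mRNAs were not analysed here.

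The family is encoded by 2 bicistrons, pairs of hairpins thought to be cut from a shared transcript. On mm10, Mir29a (ENSMUSG00000065610.1) occupies 31062660 to 31062747 of chromosome 6 on the minus strand, and Mir29b-1 (ENSMUSG00000065604.2) lies 275 bp upstream at 31063023 to 31063093. Mir29b-2 (ENSMUSG00000065412.3) occupies 195037040 to 195037120 of chromosome 1 on the plus strand, followed after 426 bp by Mir29c (ENSMUSG00000065548.1) at 195037547 to 195037634. A Mir29b gene therefore comes first in the direction of transcription in both bicistrons. The chromosome 6 pair spans 434 bp and the chromosome 1 pair 595 bp. Mir29b-2 and Mir29c lie wholly in an exon of the noncoding gene A330023F24Rik on their own strand, and opposite to an exon of Cd46, a gene for a complement regulatory protein. Mir29b-1 overlaps an exon of the noncoding gene Gm27019 by 2 nt, and Mir29a overlaps no other annotated gene. The single further gene annotated within 10000 bp of a member is Gm37366, which starts 4748 bp after Mir29c.

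**Figure D1:**
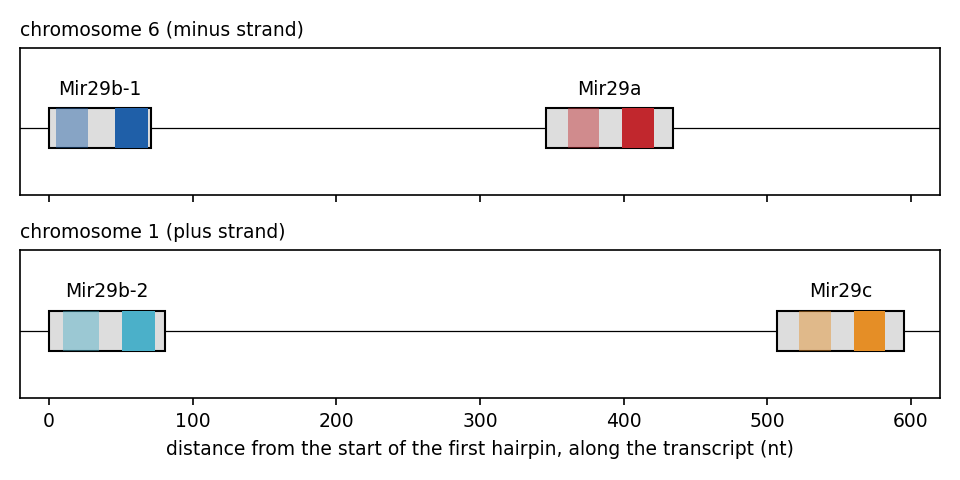
Map of both Mir29 bicistrons, with distance along the transcript in nt on the x axis, hairpins as grey boxes, 5p arms in pale and 3p arms in full colour. Both start with a Mir29b hairpin, and the pairs span 434 bp and 595 bp.

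The mature 3p arms define the family, because they share a seed, while the 5p arms do not. The arms are printed from RefSeq on GRCm38.p6, 5′ to 3′, with the seed in capitals, and all 4 genes matched by symbol. The 3p arms are shown first because the counts of the family turn on how far they can be told apart:
miR-29a-3p: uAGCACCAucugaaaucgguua
miR-29b-3p: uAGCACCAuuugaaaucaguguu
miR-29c-3p: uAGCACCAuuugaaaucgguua
The 5p arms carry different seeds:
miR-29a-5p: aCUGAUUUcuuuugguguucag
miR-29b-1-5p: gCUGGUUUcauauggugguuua
miR-29b-2-5p: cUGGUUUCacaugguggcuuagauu
miR-29c-5p: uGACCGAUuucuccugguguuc

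The seed AGCACCA was found in 3 of 1674 distinct mature arms (0.179%), all of them 3p arms of this family. Among the 5p arms, the seed of miR-29b-2-5p recurs in Mir6338, which had 0 counts in both libraries. Positions are counted from 1 at the 5′ end. The arms miR-29a-3p and miR-29c-3p differ by the single change C10U, with the base of miR-29a-3p first. The arms miR-29c-3p and miR-29b-3p are identical over their first 17 bases and then differ by G18A, U21G and A22U. Both miR-29b-3p and miR-29c-3p carry UUU at bases 9 to 11, as do 24 of 1674 arms (1.43%), and miR-29a-3p carries UCU. Uracils at these bases are known from human cells to be needed for the rapid turnover of miR-29b and miR-29c. The arm miR-29b-3p ends in AGUGUU, a motif known from human cells to direct miR-29b to the nucleus, and 2 of 1674 arms (0.119%) end in it. The 5p arms of both Mir29b genes differ at 15 of 22 bases when set base by base from their annotated 5′ ends. These ends are offset, as the longest stretch both arms share, 9 nt, starts at base 2 of miR-29b-1-5p and base 1 of miR-29b-2-5p. The count of 15 therefore compares shifted bases and does not measure how unlike the arms are.

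The Mir29b-1 and Mir29b-2 hairpins yield an identical 3p arm. Their hairpins are shown because the stretch in capitals, 25 nt long, is the longest that any Mir29 gene shares with another counted hairpin, and it covers the whole 3p arm with 2 nt before it:
Mir29b-1: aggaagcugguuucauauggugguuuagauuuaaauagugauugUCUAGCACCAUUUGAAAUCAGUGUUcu
Mir29b-2: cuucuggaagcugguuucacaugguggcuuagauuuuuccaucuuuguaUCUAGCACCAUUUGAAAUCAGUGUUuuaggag
A read of miR-29b-3p therefore matches at least 2 counted hairpins at any length up to its full 23 nt. Mir29b-1 and Mir29c share a stretch of 22 nt and Mir29b-2 and Mir29c one of 19 nt. Read from its 5′ end, miR-29c-3p is held by a single counted hairpin from 18 nt on, and miR-29a-3p from 10 nt on. The longest stretch that Mir29a shares with another member is 14 nt, with Mir29c. Each 5p arm is held by a single counted hairpin from 9 to 11 nt on. These tables keep reads with several possible loci out of the gene counts, as a class that made up 40.3% and 39.0% of all reads in replicates 1 and 2. An exact read of miR-29b-3p has at least 2 possible loci, so it falls in that class and outside the Mir29b counts. The number of such reads was not tested, nor which reads make up the Mir29b counts. The Mir29b levels below can therefore be too low. Their ratios and shares against Mir29a or Mir29c set counts without exact reads of this arm beside counts that can hold exact reads of a 3p arm.

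All 4 genes were detected, which required 10 or more counts in each library, and Mir29a dominated the family's counts. Levels are given in CPM, the library-scaled count, with own-strand counts over all microRNA genes as the total. This total was 3017058 in replicate 1 and 3209361 in replicate 2. Intervals are exact 95% Poisson intervals, and they cover counting error only, since PCR reads without molecular identifiers are not independent molecules. Mir29a had 16591 counts in replicate 1, or 5499 CPM (5416 to 5583), and 16348 counts in replicate 2, or 5094 CPM (5016 to 5173). Its mean level of 5296 ± 287 CPM (SD, n = 2) placed it 33rd of 2202 genes. Mir29c had 1469 counts, or 487 CPM (462 to 512), and 1521 counts, or 474 CPM (450 to 498). Its mean level was 480 ± 9.17 CPM (SD, n = 2), at position 135. Replicate 1 lay above replicate 2 for both genes. The intervals of the libraries were apart for Mir29a and overlapped for Mir29c.

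The Mir29b genes were lower. Mir29b-2 had 178 counts in replicate 1, or 59.0 CPM (50.6 to 68.3), and 328 counts in replicate 2, or 102 CPM (91.4 to 114). Its mean level was 80.6 ± 30.5 CPM (SD, n = 2), at position 212. Mir29b-1 had 150 counts, or 49.7 CPM (42.1 to 58.3), and 246 counts, or 76.7 CPM (67.4 to 86.9). Its mean level was 63.2 ± 19.0 CPM (SD, n = 2), at position 221. For both genes replicate 2 lay above replicate 1, and the intervals of the 2 libraries did not overlap.

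The order of levels was Mir29a, Mir29c, Mir29b-2 and Mir29b-1 in both libraries. The level of Mir29a was 11.3 and 10.7 times that of Mir29c in replicates 1 and 2, and the level of Mir29c was 8.25 and 4.64 times that of Mir29b-2. At the lower end, the level of Mir29b-2 was 1.19 and 1.33 times that of Mir29b-1. The counting intervals of these neighbours overlapped in replicate 1 and were apart in replicate 2, and their mean levels lay within 1 SD of each other. The hairpins are 88 nt (Mir29a and Mir29c), 81 nt (Mir29b-2) and 71 nt (Mir29b-1) long. Per hairpin nucleotide the mean levels were 60.2, 5.46, 0.995 and 0.890 CPM in the order above, so the order held on that scale too. The opposite strand of all 4 hairpins had 0 counts in both libraries, which allows up to 0.994 CPM in replicate 1 and 0.935 CPM in replicate 2 (3 counts). The Cd46 exon opposite Mir29b-2 and Mir29c thus gave no counted antisense reads.

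**Figure D2:**
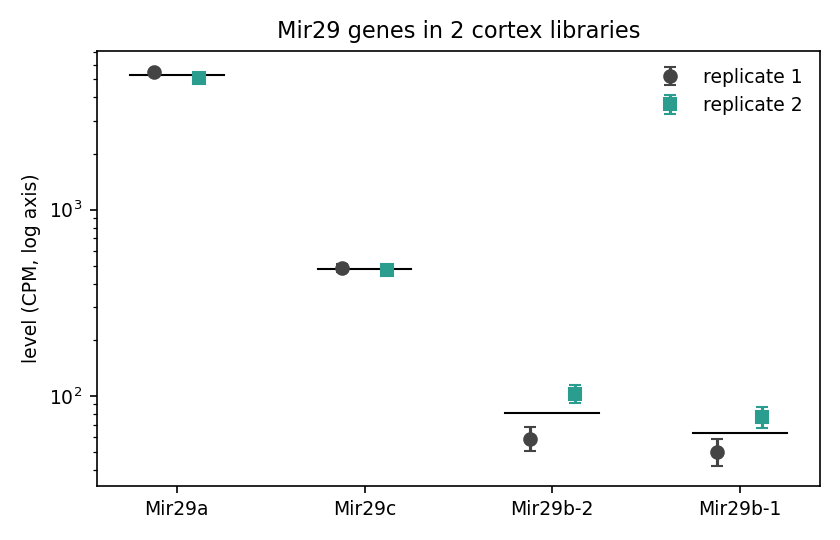
Level of each Mir29 gene in CPM on a log axis, with circles for replicate 1, squares for replicate 2, bars for exact 95% Poisson intervals and lines for the mean of both libraries. Mir29a (5296 CPM) and Mir29c (480 CPM) lie close together between libraries, and both Mir29b genes are higher in replicate 2.

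The family together supplied 0.609% of microRNA gene counts in replicate 1 (exact binomial 95% interval 0.601 to 0.618) and 0.575% in replicate 2 (0.566 to 0.583), a mean of 0.592% ± 0.0246 (SD, n = 2). Mir29a alone made up 90.2% and 88.6% of the family's counts. Mir29c made up 7.99% and 8.25%, and both Mir29b genes together made up 1.78% (1.60 to 1.99) and 3.11% (2.87 to 3.37). Mir29a held most of the family's counts, and the pair with an identical 3p arm held the least. Mir29a shares no stretch of 20 nt with another counted hairpin, and a link between level and sharing was not tested.

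The libraries were compared gene by gene to see whether the members differed between replicates by more than counting noise. The two-sided exact binomial test used library sizes scaled by TMM, a trimmed mean of the genes' ratios, on 496 genes with at least 10 counts in total, with Benjamini-Hochberg adjustment. It compares these libraries and no condition. Of all genes tested, 56.5% were called at an adjusted p under 0.05, so the 4 of 4 Mir29 genes called must be read against that share. At this depth 88.3% of the 231 genes that averaged 50 CPM or more were called. Among the members 2 were called higher in replicate 1, as were 30.6% of all genes, and 2 higher in replicate 2, as were 25.8%.

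Members of the same bicistron differed in opposite directions. After TMM scaling, Mir29a was 1.26-fold higher in replicate 1 (log2 ratio of replicate 2 to replicate 1 -0.34, 95% interval -0.37 to -0.31, exact binomial adjusted p = 7.69e-100). Mir29c was 1.20-fold higher in replicate 1 (log2 ratio -0.27, interval -0.37 to -0.16, exact binomial adjusted p = 1.17e-06). With library totals in place of TMM its log2 ratio was -0.039 and the call was lost (exact binomial adjusted p = 0.567). Mir29b-2 was 1.48-fold higher in replicate 2 (log2 ratio 0.56, interval 0.30 to 0.84, exact binomial adjusted p = 5.43e-05). Mir29b-1 was 1.32-fold higher in replicate 2 (log2 ratio 0.40, interval 0.097 to 0.70, exact binomial adjusted p = 0.0167). The Mir29a ratio moved to -0.11 with library totals and the Mir29b ratios to 0.79 for Mir29b-2 and 0.62 for Mir29b-1, so those directions held.

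After TMM scaling 0 of the 4 members were over 1.5-fold apart, against 34.2% of those 231 genes. Mir29b-2 lay close to that limit. It passed with the either-strand column, without the filter on low counts and with a minimum of 100 counts, and with library totals both Mir29b genes passed. The median log2 ratio of the 4 members, 2 below 0 and 2 above it, was 0.064, and that of all genes tested was 0.0058. The median absolute log2 ratio among the 231 genes was 0.42, and 34.6% of those genes had a larger absolute ratio than Mir29b-2, the member furthest apart. TMM moved log2 ratios by -0.23 relative to library totals. Of the calls over all genes 152 were higher in replicate 1 and 128 in replicate 2, and with library totals the split was 102 and 180.

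**Figure D3:**
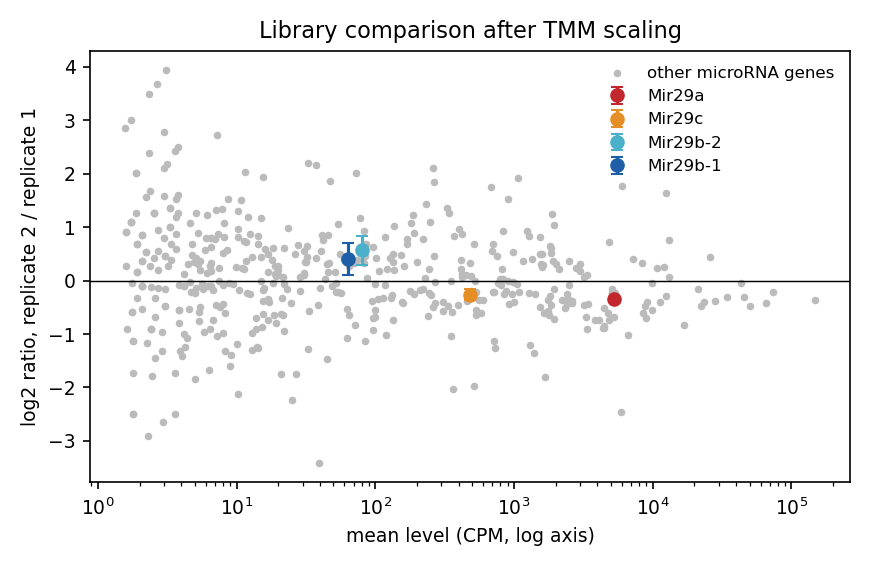
Log2 ratio of replicate 2 to replicate 1 after TMM scaling (y axis) against mean level in CPM on a log axis, for microRNA genes with at least 10 counts in total and a count in both libraries. Grey points are other genes, coloured points the Mir29 genes with 95% counting intervals; Mir29a (-0.34) and Mir29c (-0.27) lie below 0 and both Mir29b genes (0.40 and 0.56) above it.

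Shares within a bicistron need no scaling of libraries, and they differed in the same way on both chromosomes. Mir29b-1 supplied 0.896% of its bicistron's counts in replicate 1 (exact binomial 95% interval 0.759 to 1.05) and 1.48% in replicate 2 (1.30 to 1.68). Mir29a correspondingly held 99.1% and 98.5%, a mean of 98.8% ± 0.415 (SD, n = 2; two-sided Fisher's exact test between the libraries, adjusted p = 1.25e-06 over 3 such tests, raw p = 8.35e-07). Mir29b-2 supplied 10.8% of its bicistron's counts in replicate 1 (9.35 to 12.4) and 17.7% in replicate 2 (16.02 to 19.56). Mir29c correspondingly held 89.2% and 82.3%, a mean of 85.7% ± 4.90 (SD, n = 2; Fisher's exact test, adjusted p = 1.51e-08, raw p = 5.05e-09). The odds of the Mir29b member therefore differed between libraries by 0.73 on the log2 scale on chromosome 6 and by 0.83 on chromosome 1.

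The balance between the bicistrons was compared in the same way. The chromosome 6 pair held 91.0% of the family's counts in replicate 1 (90.6 to 91.5) and 89.97% in replicate 2 (89.5 to 90.4), a mean of 90.5% ± 0.756 (SD, n = 2). That difference of -1.07 percentage points also exceeded counting noise (Fisher's exact test, adjusted p = 4.92e-04), with odds that differed by -0.18 on the log2 scale. Mir29b-1 made up 45.7% of the counts of both Mir29b genes in replicate 1 (40.2 to 51.3) and 42.9% in replicate 2 (38.8 to 47.0), and these intervals overlapped. With 2 libraries none of these tests says whether animals or library preparations differ in general.

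**Figure D4:**
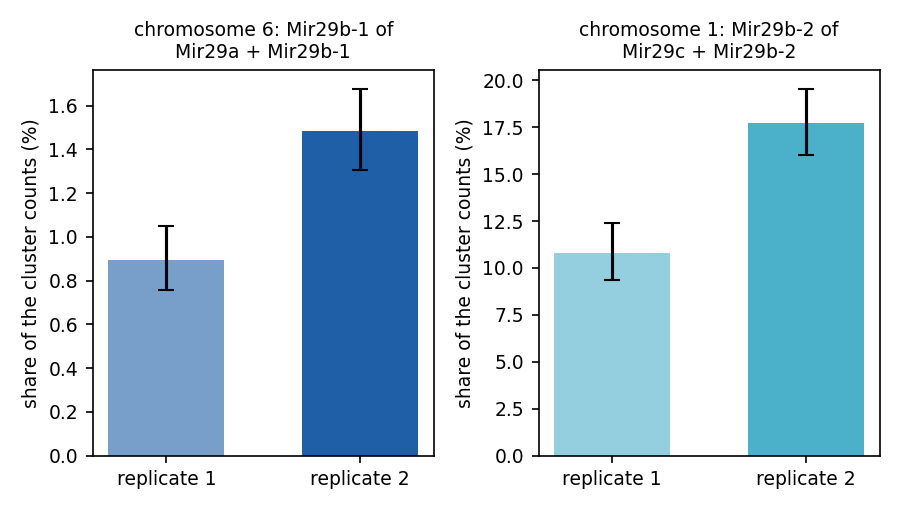
Share of each bicistron's counts held by its Mir29b member, in percent, with exact 95% binomial intervals as bars on linear axes from 0. Replicate 2 is above replicate 1 in both panels, at 1.48% against 0.896% and at 17.7% against 10.8%.

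Marker microRNAs were read as a check of the labelled tissue and of other cell types. The neuron list held 21.9% and 20.6% of counts in replicates 1 and 2, with 7 of 10 genes detected. The 3 Mir124a genes did not reach 10 counts in each library. Reads with several possible loci are outside these counts, and whether Mir124a reads lie among them was not tested. Of this list 5 genes were called higher in replicate 1 and 2 higher in replicate 2 (3 and 2 with library totals), where 30.6% and 25.8% of all tested genes were. Astrocyte markers other than the Mir29 genes, Mir23a and Mir23b, held 3.37% and 2.84%, and both were called higher in replicate 1. Oligodendrocyte markers held 0.366% and 0.563%, and 3 of 3 were called higher in replicate 2. Of these, Mir219a-1 averaged 3.15 CPM and did not reach the minimum for detection. Microglia and immune markers held 0.284% and 0.240%, with 5 of 5 called higher in replicate 1 (3 of 5 with library totals), and endothelial and mural markers held 1.20% and 1.26%, with 2 called higher in replicate 1 and 1 in replicate 2. The lists for red blood cells, liver, muscle, fibroblasts and epithelium each held at most 0.00754% in either library. Mir141, Mir199a-1 and the Mir1a and Mir133a genes of the muscle list had 0 counts in both. The Mir1a and Mir133a genes share 20 nt or more with another counted hairpin. Whether reads of these genes lie among those with several possible loci was not tested, so their 0 counts need not mean absence. In bulk tissue, fewer cells of a type and less RNA per cell cannot be told apart, and the part of cell composition in the Mir29 ratios was not tested.

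The genes nearest to the members in level, by the distance of log2(CPM + 1) over 2 libraries, were of varied families. Mir29a lay next to Mir137 (5338 and 5342 CPM), a microRNA of neurons, and Mir138-1 (5132 and 5113 CPM), known from rat neurons for limiting dendritic spine size. Mir29c lay next to Mirlet7c-1 (482 and 494 CPM), a let-7 gene, and Mir204 (479 and 433 CPM), known from retinal pigment epithelium and choroid plexus. Mir29b-1 lay next to Mir148b (50.7 and 81.6 CPM) and Mir345 (53.4 and 75.7 CPM). Mir29b-2 lay next to Mir539 (59.3 and 112 CPM), a gene of the imprinted Dlk1-Dio3 cluster, and Mir6944 (64.6 and 104 CPM). A likeness over 2 libraries is a likeness of level alone.

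Other families encoded by twin clusters, in which related hairpins sit side by side at 2 loci, are set beside the Mir29 values, without a test of any difference. The Mir29 family had its highest gene, Mir29a, at 89.5% of the family's summed mean CPM. In the Mir181 family, Mir181b-2 held 86.6%, in the Mir23, Mir27 and Mir24 clusters Mir23b held 67.7%, and in the Mir30 clusters Mir30a held 52.2%. The chromosome 6 pair held 90.5% of the Mir29 counts on average, and in the Mir30 clusters the Mir30a and Mir30c-2 pair held 55.3%. That Mir30 share was 62.2% in replicate 1 and 48.5% in replicate 2, so the larger pair changed between libraries. The Mir15a and Mir16-1 pair held 68.0% of its family's counts on average, but 54.7% in replicate 1 and 81.2% in replicate 2. The Mir23a, Mir27a and Mir24-2 cluster held 27.4% on average (27.6% and 27.2%). The Mir181a-1 and Mir181b-1 pair held 13.0% on average (10.96% and 15.13%), with the rest in the other cluster. The Mir194-1 and Mir215 pair held 2.95%, in a family with 1 of 4 genes detected. A split of counts that was uneven in both libraries was thus not particular to the Mir29 family, given the Mir181 and Mir23 values. The Mir30 and Mir15 splits varied too much between libraries to add to this. Reads with several possible loci are outside all of these shares. As a share of all counts the Mir29 family (0.592% ± 0.0246, SD, n = 2) lay between the Mir181 family at 0.370% ± 0.0258 and the Mir30 clusters at 0.791% ± 0.0530. The Mir23, Mir27 and Mir24 clusters held 3.28% ± 0.326, the Mir15 and Mir16 clusters 0.113% ± 0.0574, and the Mir194, Mir192 and Mir215 genes 0.00272% ± 0.00104 (SD, n = 2). The Mir1a and Mir133a genes of muscle had 0 counts in both libraries.

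Low members with a shared stretch occurred in these families too, but not in all. Of 26 genes on the twin cluster list, 20 have 20 nt or more in common with another counted hairpin, beside 1084 of all 2202 counted genes. Their median was 54.3 CPM, and 6 share none, with a median of 463 CPM. The 20 include the Mir1a and Mir133a genes at 0 counts and Mir194-1 at 0.653 CPM. Among the 6 are Mir215 at 0 counts and Mir192 at 7.22 CPM. The medians thus depend on the families listed, and a link between level and sharing was not tested. Mir30a (4130 ± 1034 CPM) and Mir30e (3349 ± 544 CPM) share none, while Mir30c-2 (269 ± 24.7 CPM) and Mir30c-1 (157 ± 14.6 CPM) do (SD, n = 2). By contrast, Mir23b (22192 ± 2686 CPM) and Mir23a (8833 ± 1029 CPM) share such a stretch and were the highest of the list. Of the 20 genes on the list that could be tested between libraries, 14 were called, 8 higher in replicate 1 and 6 higher in replicate 2, beside 56.5% of all tested genes. The median log2 ratio of the tested genes was 0.097.

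**Figure D5:**
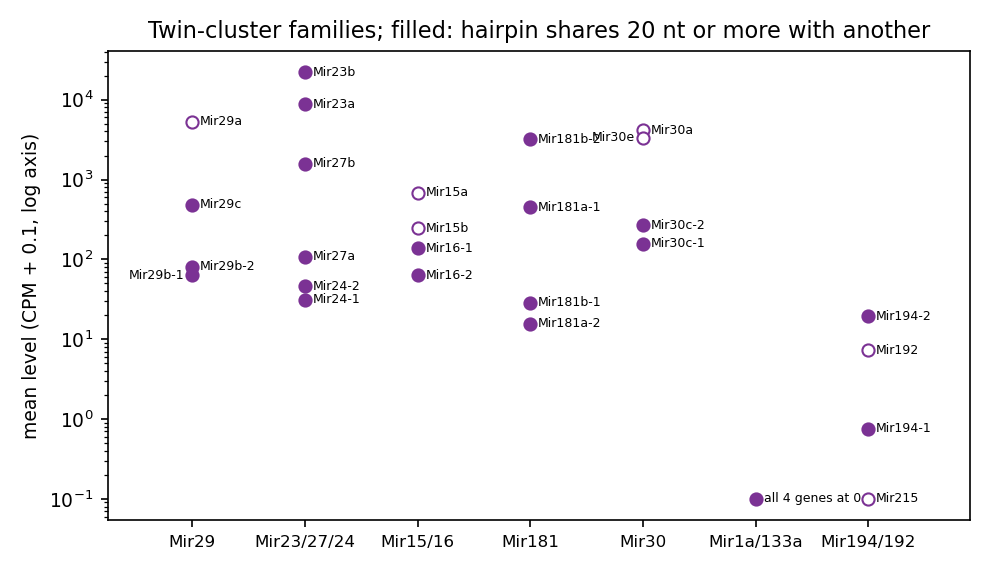
Mean level in CPM plus 0.1 on a log axis for each gene of 7 twin-cluster families, with filled points for hairpins that share at least 20 nt with another counted hairpin and open points for the others. Mir29a is the sole open point among the Mir29 genes and the highest of them, while Mir23b and Mir23a are filled and the highest of all.

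Folds of the 4 hairpins were predicted with RNAfold. The minimum free energy was -34.1 kcal/mol for Mir29a, -34.8 for Mir29c, -31.1 for Mir29b-2 and -26.3 for Mir29b-1, the shortest hairpin. Per nucleotide it ranged from -0.395 to -0.370 kcal/mol. Of the 3p arms, 19 of 22 bases were paired in Mir29a and Mir29c and 21 of 23 in both Mir29b hairpins. The GC content of the hairpins ran from 35.2% in Mir29b-1 to 44.3% in Mir29c.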

How the data were processed

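The authors deposited read counts per microRNA gene on mm10 with GENCODE M21 and 1 table per library, per the file headers and listings. Which aligner and counter were run is not given in the sources used here. Each table holds an either-strand, an own-strand and an opposite-strand column, a reading that rests on the values. Of stranded counts, 93.8% and 93.7% were on the own strand, and these were used throughout. The 4 classes of reads in no gene were left out of library sizes. All 2202 identifiers matched M21. Counts are per hairpin and do not separate its arms.

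Own values were CPM, shares with exact intervals, two-sided exact binomial tests on TMM-scaled library sizes across all genes with at least 10 counts, and Fisher's exact tests. The binomial test was run on simulated data first. Python 3.11.15, scipy 1.17.1, edgeR 4.0.16 (TMM), DESeq2 1.42.0 (size factors) and RNAfold 2.7.2 with default settings were used. Shared stretches were sought among counted hairpins on the same strand and not elsewhere in the genome.

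Genes named were the members, the 2 genes nearest to each in level, neighbours within 10000 bp, genes sharing a stretch of 20 nt or the seed, a list of twin clusters and 10 lists of cell type markers. Members and lists were chosen with earlier results of these data known. Whether the replicates came from separate donors is not settled by the labels. The p-values set a difference between these 2 libraries against counting noise alone, and that difference may be technical.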

Additional observations from a re-analysis of the deposited data

Results flagged for a closer look

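Reads placed at several loci lie outside the gene counts, and they made up 40.3% of all reads in replicate 1 and 39.0% in replicate 2. An exact read of the identical 3p arm of Mir29b-1 and Mir29b-2 falls in that class, and the number of such reads was not tested.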

How the results depend on the processing

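Of 71 alternative values, 60 kept their direction and their side of the threshold or stayed within 1 SD, 10 moved further than 1 SD, 1 lost its call and 0 reversed. With all reads as the denominator the levels were 1857 CPM for Mir29a, 168 for Mir29c, 28.1 for Mir29b-2 and 22.1 for Mir29b-1, and the family share was 0.208%. With the either-strand column Mir29a was at 5673 CPM, Mir29c at 515 CPM and the family share at 0.634%. Without the highest gene in the denominator, Mir29a was at 6225 CPM and Mir29c at 565 CPM. The order of the 4 genes is the same under each denominator by construction. The lost call was that of Mir29c with library totals (log2 ratio -0.039, exact binomial adjusted p = 0.567, against at most 1.07e-04 in its other settings), which left 3 of 4 members called there; its log2 ratios under both scalings differ by the TMM shift of -0.23. Over 1.5-fold apart were 0 members with TMM or DESeq2 size factors, 1 with the either-strand column, without the filter or with at least 100 counts, and 2 with library totals. The number of genes called ran from 238 to 282. With 2 libraries, a value without either library always lies within 1 SD of the mean, so such values are among the 60 by construction. So are the bicistron shares with the either-strand column, which equal the main ones because the members had 0 opposite-strand counts. The number of members sharing a stretch was 3 of 4 at 18, 20 and 22 nt, beside 1128, 1084 and 1023 of all 2202 counted genes. The genes nearest in level were unchanged with 5 CPM added. No paired analysis was possible because the labels give a single group. Depth limits the Mir29b genes most, at 150 to 328 counts per library.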
